A study of Mus musculus with 10 samples.

Results

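The plasma cell program was followed here through 7 genes, Igj, Derl3, Tnfrsf17, Prdm1, Xbp1, Irf4 and Sdc1, in RNA sequencing of the mouse terminal ileum. The genes were picked by symbol as components of the antibody-secreting state, with earlier results of these data known. All 7 were found among the 36401 genes in the files, each under a single Ensembl ID. The samples came from male C57Bl6 mice that had eaten a diet with 60 kcal% fat for 6 weeks, with surgery given at an age of 8 weeks. The VSG group (5 libraries) had a vertical sleeve gastrectomy, an operation that takes away the outer curve of the stomach and leaves a narrow sleeve, and then ate freely. The SPF group (5 libraries) had a sham operation and was pair-fed to the VSG mice. Both groups took a liquid Osmolite diet around the operation, and about 8 weeks later were fasted overnight, gavaged with 0.5 mL Osmolite and killed after 1 hour. No transgene or mutation is named for either group, and nothing in the labels says that mice were pooled.

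Plasma cells are the end stage of the B cell lineage and secrete antibody. In the lamina propria of the small intestine most of them make IgA, which is joined into dimers by the J chain and carried across the epithelium by the polymeric immunoglobulin receptor. Entry into this state is driven by IRF4, Blimp-1 (the product of Prdm1) and XBP1, a transcription factor activated when IRE1 splices its mRNA, which expands the endoplasmic reticulum for secretion. The B cell genes Pax5, Bach2 and Ms4a1 are switched off on the way.

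In summed estimated counts the 10 libraries held 15364651 to 34058181 reads. VSG 2, SPF 2 and SPF 4 stood apart from the rest: the 8 upper small intestine markers summed to 2800 to 3233 normalised CPM (read counts scaled to a fixed total) in these 3 libraries and to 65.8 to 149.5 CPM in the other 7. Against the label, the 3 ileum markers (Fabp6, Slc10a2 and Fgf15) summed to 53.5 to 78.9 CPM in the 3 libraries and to 2991 to 6352 CPM in the other 7. For the members, and for other genes and lists where leaving these libraries out moves a printed fold change markedly, the value in the other 7 (4 VSG and 3 SPF) is given beside it. The tissue is a mixture of cells, so a higher level can come from more plasma cells or from more RNA in each, and these cannot be told apart. Whether each library is 1 mouse is not stated beyond the sample names, so the tests measure the spread between libraries.

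All 7 members had a higher mean in VSG than in SPF libraries, and none passed the test. With edgeR's quasi-likelihood test, Benjamini-Hochberg adjusted over 15678 genes, the number of genes called was 0 (percent called 0%), and every member had an adjusted p of 0.977. DESeq2 called 14 of 17545 genes (0.0798%) and none of them was a member, and limma-voom called 0. An unadjusted p under 0.05 was reached by 595 genes (3.8% of those tested), 295 of them higher in VSG (1.88%) and 300 lower (1.91%). Prdm1 and Derl3 were among the 295. A log2 fold change above 0 was found for 41.9% of all genes tested, with a median of -0.05, whereas the members had a median of 0.51. Without VSG 2, SPF 2 and SPF 4, 6 members had a fold change above 0, against 43.2% of 15911 genes, the median of the members was 0.37, and 0 members reached an unadjusted p under 0.05, against 3.7% of genes on the higher side. The members were chosen with earlier results of these data known, and some of them rose and fell together between libraries. The contrast with all genes is therefore a description and not a test.

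**Figure D1:**
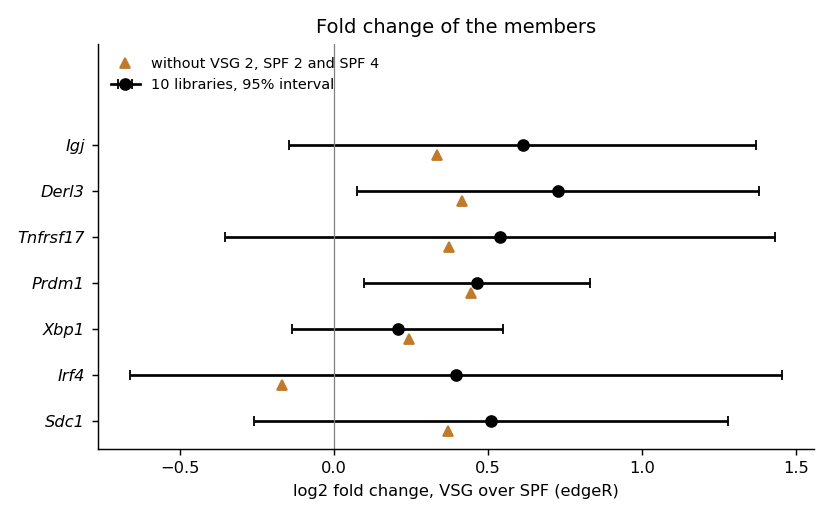
Log2 fold changes of the 7 members in VSG over SPF libraries from edgeR, with 95% intervals (black), and the same without VSG 2, SPF 2 and SPF 4 (triangles). The 7 black points lie above 0, and the intervals of Derl3 and Prdm1 do not reach 0. The triangle of Irf4 lies below 0, at -0.17.

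Igj, Derl3 and Tnfrsf17 moved together between libraries, so the sequence before each gene is shown for comparison. The capitals mark, on either strand, the CCAAT box that binds NF-Y, the CCACG box read by ATF6 and XBP1 beside it, and the ACGTG core of other XBP1 sites. The stretches are the 250 bases before each gene's start in RefSeq (mouse GRCm38.p6), written 5′ to 3′ on the strand of the gene. They are Derl3 at chr10:75893148-75893397 on the plus strand, Tnfrsf17 at chr16:11313559-11313808 on the plus strand and Igj, which RefSeq names Jchain, at chr5:88527898-88528147 on the minus strand.
Derl3: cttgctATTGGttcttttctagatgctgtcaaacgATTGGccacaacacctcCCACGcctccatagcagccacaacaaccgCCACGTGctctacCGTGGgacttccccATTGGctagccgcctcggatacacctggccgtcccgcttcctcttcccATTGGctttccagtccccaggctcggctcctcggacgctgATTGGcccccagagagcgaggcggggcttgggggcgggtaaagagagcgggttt
Tnfrsf17: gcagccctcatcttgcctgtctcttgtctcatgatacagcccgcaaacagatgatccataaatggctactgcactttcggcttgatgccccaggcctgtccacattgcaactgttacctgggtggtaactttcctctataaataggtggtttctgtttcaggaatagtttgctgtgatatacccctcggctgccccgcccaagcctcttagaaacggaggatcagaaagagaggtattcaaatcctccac
Igj: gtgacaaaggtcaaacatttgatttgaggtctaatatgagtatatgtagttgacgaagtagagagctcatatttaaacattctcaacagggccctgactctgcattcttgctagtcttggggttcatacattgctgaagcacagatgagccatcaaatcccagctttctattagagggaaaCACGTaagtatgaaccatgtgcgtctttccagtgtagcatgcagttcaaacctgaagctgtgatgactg
The Derl3 stretch held 5 CCAAT, 3 CCACG and 2 ACGTG boxes, counting both strands and counting overlapping boxes each time. It also held 1 full endoplasmic reticulum stress element, searched as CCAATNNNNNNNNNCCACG, which is made of 1 of those CCAAT and 1 of those CCACG boxes. On the minus strand it reads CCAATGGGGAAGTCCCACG and covers the written strand from position -156 on, counted from the gene's start. Of 32851 promoters of this length, 37 (0.113%) held that element, while CCAAT was found in 33.8%, CCACG in 28.3% and ACGTG in 16.6%. The Igj stretch held 1 ACGTG box at -69, and the Tnfrsf17 stretch none of these letters. Promoters of the other 4 members were found too, and none of them held the full element.

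Igj encodes the J chain and was the member with the highest level. It stood at 406.8, 833.1, 634.5, 348.4 and 308.2 CPM in VSG 1 to VSG 5, against 344.5, 154.6, 381.1, 489.7 and 285.3 CPM in SPF 1 to SPF 5. The groups overlapped: VSG 2 and VSG 3 lay above every SPF library, SPF 2 lay lowest, and the other 7 fell between 285.3 and 489.7 CPM. The means were 506.2 ± 222.1 CPM in VSG and 331.0 ± 123.6 CPM in SPF (SD, n = 5 each). On the log2 scale the fold change was 0.61 (95% interval -0.14 to 1.37; edgeR adjusted p = 0.977, unadjusted 0.103). It was 0.36 without VSG 2 and 0.33 without VSG 2, SPF 2 and SPF 4.

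Derl3 encodes derlin-3, a membrane protein that helps remove misfolded proteins from the endoplasmic reticulum and is a target of XBP1. Its levels were 4.88, 8.999, 6.21, 4.31 and 4.08 CPM in VSG 1 to VSG 5 and 3.34, 2.10, 5.00, 4.17 and 2.62 CPM in SPF 1 to SPF 5. VSG 2 and VSG 3 were again above all SPF libraries and SPF 2 again lowest, while SPF 3 and SPF 4 lay within the VSG range. Derl3 averaged 5.69 ± 2.02 CPM in VSG and 3.45 ± 1.17 CPM in SPF (SD, n = 5 each), and its log2 fold change was 0.73 ± 0.30 (SE; 95% interval 0.08 to 1.38; edgeR adjusted p = 0.977, unadjusted 0.0318). Without VSG 2, SPF 2 and SPF 4 the fold change was 0.41.

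Tnfrsf17 encodes BCMA, the receptor through which APRIL and BAFF keep plasma cells alive. It was the least counted member, with 11 to 36 reads per library. Its levels were 1.05, 1.36, 1.89, 0.640 and 1.04 CPM in VSG 1 to VSG 5 and 0.584, 0.355, 1.42, 1.11 and 0.650 CPM in SPF 1 to SPF 5. VSG 3 was the one library above all SPF libraries, and VSG 4 lay among the lowest. The means of 1.20 ± 0.46 CPM in VSG and 0.824 ± 0.431 CPM in SPF (SD, n = 5 each) gave a log2 fold change of 0.54 (95% interval -0.35 to 1.43; edgeR adjusted p = 0.977), which was 0.32 without VSG 3, 0.34 without SPF 2, 0.84 without SPF 3 and 0.37 in the 7 libraries.

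**Figure D2:**
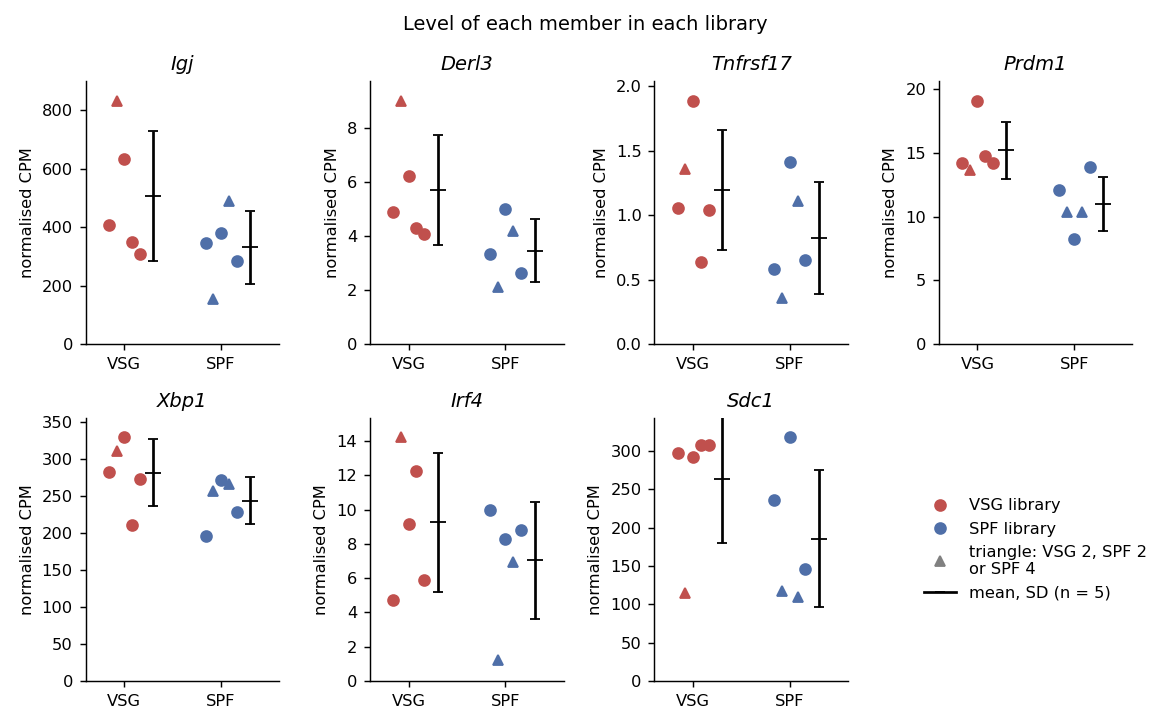
Normalised CPM (linear axes from 0) of each member in each VSG library (red) and SPF library (blue), with the mean and SD (n = 5) beside the points. Triangles mark VSG 2, SPF 2 and SPF 4. In Prdm1 and in Xbp1, 4 of 5 VSG libraries lie above all SPF libraries, and in Sdc1 the 3 triangles lie together at 110.0 to 116.8 CPM.

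Over the 10 libraries, log2 CPM of Derl3 and Igj had r = 0.93 (Spearman's rho = 0.90, permutation p = 0.00041 and 0.00078, adjusted over 21 pairs of members 0.0086 and 0.016). The r was 0.78 without the 2 libraries farthest from the median of Derl3, and 0.84 in the 7 libraries (rho = 0.93, exact permutation p = 0.018 and 0.0067, adjusted 0.097 and 0.13). Igj counts were 73.7 to 117.3 times those of Derl3 in the same library, a 1.59-fold range, although Igj itself ranged 5.39-fold and Derl3 4.29-fold. Derl3 and Tnfrsf17 had r = 0.84 (rho = 0.84, permutation p = 0.0022 and 0.0034, adjusted 0.021 and 0.036), with 0.83 without the 2 farthest libraries. For Tnfrsf17 and Igj, r was 0.83 (rho = 0.81, permutation p = 0.003 and 0.0072, adjusted 0.021 and 0.047) and 0.61 without the 2 farthest. In the 7 libraries Derl3 and Tnfrsf17 had r = 0.84 (rho = 0.82, exact permutation p = 0.022 and 0.034, adjusted 0.097 and 0.24). Tnfrsf17 and Igj had r = 0.77 there (rho = 0.68, exact permutation p = 0.023 and 0.11, adjusted 0.097 and 0.46), so no pair of these 3 genes passed the adjustment in the 7. Permutations, here and below, crossed the VSG and SPF groups. A difference between the groups that 2 genes share therefore enters r and its p.

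Immunoglobulin genes were highest and lowest in the same libraries as Igj and Derl3. Their summed level was 1885, 3853, 2613, 1729 and 1516 CPM in VSG 1 to VSG 5 and 1721, 672.2, 2400, 1868 and 1271 CPM in SPF 1 to SPF 5. VSG 2 was highest and SPF 2 lowest, and the groups overlapped. Igkc, the constant region of the kappa light chain, stood at 1018 ± 380.0 CPM in VSG and 759.5 ± 301.7 CPM in SPF (SD, n = 5 each; log2 fold change 0.42, 95% interval -0.33 to 1.18; 0.14 in the 7 libraries), and its counts were 1.78 to 2.74 times those of Igj in every library. Of 121 immunoglobulin genes tested, 85 had a higher and 36 a lower fold change in VSG, with 24 and 0 at an unadjusted p under 0.05 (1.88% and 1.91% of all genes) and a median of 0.62. Without VSG 2, SPF 2 and SPF 4 the counts were 75 and 53 of 128, with 10 and 10 at that p (3.7% and 3.26% of all genes) and a median of 0.23. The variable genes hold near-identical copies and are transcribed by the same cells, so they are neither separate measurements nor certain as single genes.

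Of 6 matched constant genes, 5 had a higher and 1 a lower fold change in VSG, with a median of 0.78, and 3 and 3, with a median of 0.04, without VSG 2, SPF 2 and SPF 4. Ighg1, the IgG1 constant region, was 3.67, 21.8, 3.78, 10.3 and 3.88 CPM in VSG 1 to VSG 5 and 4.06, 0.549, 4.41, 0.334 and 0.910 CPM in SPF 1 to SPF 5. Its highest value was in VSG 2 and its lowest in SPF 4 and SPF 2, and its log2 fold change of 2.08 (edgeR adjusted p = 0.977, unadjusted 0.0216) was 0.81 without those 3 libraries. Ighg2c averaged 3.14 ± 1.30 CPM in VSG and 1.43 ± 1.35 CPM in SPF (SD, n = 5 each), and Iglc3, a lambda constant region, lay between 7.18 and 405.3 CPM in VSG and between 6.845 and 249.99 CPM in SPF. The log2 fold change of Ighg2c was 1.13, and 0.41 in the 7 libraries, and that of Iglc3 1.21, and -0.43 in the 7. Ighm, the IgM constant region that B cells also express, had means of 54.6 ± 37.4 CPM in VSG and 55.3 ± 53.8 CPM in SPF (log2 fold change -0.02, and -0.76 in the 7 libraries). Igha, the constant region of IgA, was not analysed here.

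The 10 genes other than immunoglobulin genes whose log2 CPM was most like the mean standardised profile of Derl3, Tnfrsf17 and Igj, among 14175 genes of at least 1 CPM, were Plekha2 (r = 0.91), 2010001M09Rik (0.90), Gm14446 (0.87), Slpi (0.86), Moap1, Gm16828 and Alg12 (0.85 each), Gtf2a2, Mlkl and Srp54b (0.84 each). 2010001M09Rik is the files' name for Mzb1, a chaperone of antibody assembly in B and plasma cells, and stood at 11.96 ± 4.18 CPM in VSG and 8.66 ± 4.05 CPM in SPF (SD, n = 5 each). In the reference table the IDs given as Moap1 and Srp54b carry other symbols, so these names are uncertain. Among the 50 most alike genes of any kind, 15 were immunoglobulin genes, which make up 0.804% of the genes compared, and Igkc ranked highest with r = 0.97. Other members were less alike, with r of 0.66 for Xbp1, 0.66 for Irf4, 0.31 for Prdm1 and 0.19 for Sdc1. A few other listed plasma cell genes, looked up by name, were also less alike than Mzb1, with r of 0.38 to 0.61. In the 7 libraries the r of the 10 named genes to this profile ran from 0.63 (Gm14446) to 0.86 (Alg12), with 0.73 for 2010001M09Rik. Over 10 libraries such values describe these libraries and carry no test.

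**Figure D3:**
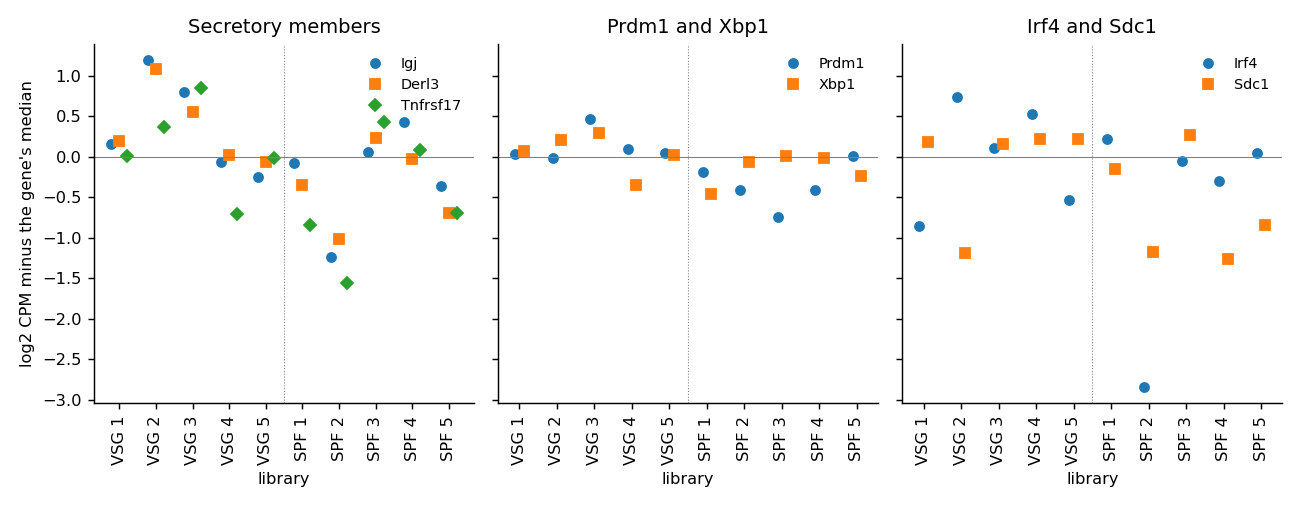
Log2 of the normalised CPM of each member, with no prior count added, minus that gene's median over the 10 libraries, by library. VSG libraries lie left and SPF libraries right of the dotted line. Igj, Derl3 and Tnfrsf17 are high in VSG 2 and VSG 3 and low in SPF 2. Irf4 shares the low value of SPF 2, and Sdc1 is low in VSG 2, SPF 2 and SPF 4.

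Prdm1 encodes Blimp-1, the repressor that ends the B cell program, and is also expressed in other lymphocytes and in epithelia. It had the lowest unadjusted p of the members. Prdm1 stood at 14.2, 13.7, 19.1, 14.7 and 14.2 CPM in VSG 1 to VSG 5, against 12.1, 10.4, 8.22, 10.4 and 13.9 CPM in SPF 1 to SPF 5. VSG 1, VSG 3, VSG 4 and VSG 5 were above every SPF library, and VSG 2 was below SPF 5 alone, so the groups overlapped by a single library on either side. How many of all genes overlap by so little was not counted. Groups that did not overlap at all are a stricter case, found with VSG above for 0.255% of the genes tested and VSG below for 0.293%. Prdm1 is not among them. The means were 15.2 ± 2.22 CPM in VSG and 10.99 ± 2.13 CPM in SPF (SD, n = 5 each). The log2 fold change was 0.46 ± 0.17 (SE; 95% interval 0.10 to 0.83; edgeR adjusted p = 0.977, unadjusted 0.0175). It was 0.45 without VSG 2, SPF 2 and SPF 4, and ran from 0.37 to 0.57 with each library left out.

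Xbp1 is also needed by Paneth and goblet cells, which secrete large amounts of protein. Its level varied least of the members, over a 1.68-fold range. It was 282.3, 311.7, 329.7, 211.3 and 272.9 CPM in VSG 1 to VSG 5 and 196.1, 256.7, 271.4, 266.7 and 228.5 CPM in SPF 1 to SPF 5. 4 VSG libraries lay above every SPF library, but VSG 4 lay below 4 of the SPF libraries. VSG 5 (272.9 CPM) and SPF 3 (271.4 CPM) nearly met. The share of all genes with such an order was not counted. The means of 281.6 ± 45.4 CPM in VSG and 243.9 ± 31.5 CPM in SPF (SD, n = 5 each) differed by a log2 fold change of 0.21 (95% interval -0.13 to 0.55; edgeR adjusted p = 0.977), which was 0.24 in the 7 libraries. The counts are of the whole gene, so the spliced, active form of its mRNA was not measured. Xbp1 and Tnfrsf17 had r = 0.74 over the 10 libraries (rho = 0.79, permutation p = 0.015 and 0.009, adjusted 0.079 and 0.047) and 0.95 in the 7 (rho = 0.89, exact permutation p = 0.0024 and 0.012, adjusted 0.05 and 0.13). Summed goblet cell markers (7 genes, none at 0 throughout) were 7027 to 16253 CPM in VSG and 5508 to 20432 CPM in SPF, and Paneth cell markers (6 genes, none at 0 throughout) were 2378 to 13560 CPM in VSG and 1832 to 18714 CPM in SPF. Their part in the level of Xbp1 was not tested.

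Irf4 encodes a transcription factor of activated B and T cells, plasma cells and some dendritic cells. It had the widest range of the members, 11.9-fold, which was set by SPF 2 at 37 reads. Its SD over the 10 libraries was 45.9% of its mean, against 46.1% for Igj and 46.1% for Tnfrsf17. Its levels were 4.72, 14.2, 9.18, 12.3 and 5.88 CPM in VSG 1 to VSG 5 and 9.97, 1.19, 8.26, 6.96 and 8.81 CPM in SPF 1 to SPF 5. SPF 2 stood alone at the low end, and VSG 1 and VSG 5 lay below the other 4 SPF libraries. Irf4 averaged 9.26 ± 4.06 CPM in VSG and 7.04 ± 3.44 CPM in SPF (SD, n = 5 each), with a log2 fold change of 0.40 (95% interval -0.66 to 1.45; edgeR adjusted p = 0.977). The value was 0.19 without VSG 2, 0.12 without SPF 2 and -0.17 without VSG 2, SPF 2 and SPF 4. Between Irf4 and Derl3 the ratio of counts ran from 0.569 in SPF 2 to 3.36 in SPF 5, a 5.90-fold range.

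B cell markers were high in some libraries and low in others of either group. The 12 B cell markers, none at 0 throughout, summed to 23.6, 203.5, 43.3, 272.0 and 200.1 CPM in VSG 1 to VSG 5 and to 194.6, 13.7, 351.3, 19.7 and 113.7 CPM in SPF 1 to SPF 5. VSG 1, VSG 3, SPF 2 and SPF 4 were low. Irf4 was lowest where this sum was lowest, in SPF 2, and next lowest in VSG 1, but it was 9.18 CPM in VSG 3 and 6.96 CPM in SPF 4, also low in these markers, and 5.88 CPM in VSG 5, where they were high. VSG 3 and SPF 4 ranked next below VSG 2 in Igj. Log2 CPM of Irf4 and the mean log2 CPM of these markers had r = 0.64 over the 10 libraries (permutation p = 0.024). Adjusted over 63 pairs of a member and a marker list, that p was 0.3. In the 7 libraries r was 0.56 (exact permutation p = 0.17). Such a correlation does not give the part of B cells in the level of Irf4, which was not tested.

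**Figure D4:**
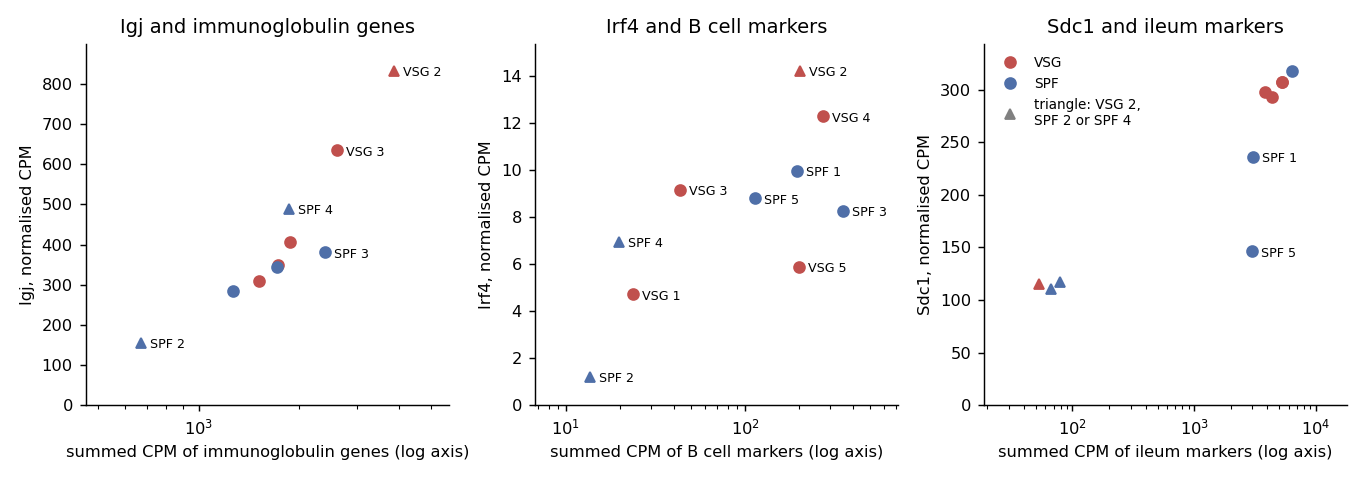
Normalised CPM of Igj, Irf4 and Sdc1 (linear axes from 0) against the summed CPM of immunoglobulin genes, of 12 B cell markers and of 3 ileum markers (log axes), 1 point per VSG (red) or SPF (blue) library. Triangles are VSG 2, SPF 2 and SPF 4. They lie at 53.5 to 78.9 CPM of ileum markers and 110.0 to 116.8 CPM of Sdc1.

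Sdc1 encodes syndecan-1, a heparan sulfate proteoglycan used as a surface mark of plasma cells (CD138) and carried by epithelial cells as well. It stood at 297.6, 115.1, 292.7, 307.5 and 307.1 CPM in VSG 1 to VSG 5, against 236.0, 116.8, 317.9, 110.0 and 146.2 CPM in SPF 1 to SPF 5. The low values were those of VSG 2, SPF 2 and SPF 4, the libraries low in ileum markers, which did not overlap the other 7 (146.2 to 317.9 CPM). The share of all genes that split the libraries in this way was not counted. VSG 2, the library with the highest Igj and Derl3, was thus among the lowest in Sdc1. The means were 264.0 ± 83.5 CPM in VSG and 185.4 ± 89.5 CPM in SPF (SD, n = 5 each), and the log2 fold change was 0.51 (95% interval -0.26 to 1.28; edgeR adjusted p = 0.977). It was 0.37 without the 3 libraries, 0.25 with the mean of the upper small intestine markers as a covariate and 0.80 without SPF 3. Summed enterocyte markers (8 genes, none at 0 throughout) were 28864 to 40444 CPM in VSG and 17195 to 38646 CPM in SPF, and their part was not tested. SPF 5 (146.2 CPM) lay nearer to the 3 libraries in Sdc1 than to the next library, SPF 1 (236.0 CPM). Correlations of Sdc1 and Irf4 with Derl3 changed when the 3 libraries were left out. For Sdc1, r was 0.20 over the 10 libraries and 0.83 in the 7, and for Irf4 0.64 and -0.17. Neither pair passed the adjustment over 21 pairs in either set. Apart from those given here and above, correlations of Sdc1 and Irf4 are not given.

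Set per kilobase of exon (lengths from GENCODE M21, which is not the annotation of the files), the members fell into a high and a low class. Igj had a median over the 10 libraries of 144.9 CPM per kb, Xbp1 82.85 and Sdc1 69.4. Prdm1 had 2.47, Derl3 2.13, Irf4 1.74 and Tnfrsf17 1.28 CPM per kb. Within each class the ranges of neighbouring genes overlapped, and the lowest level of the high class (28.9 CPM per kb, Sdc1) was above the highest of the low class (4.515 CPM per kb, Derl3).

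No other plasma cell gene was called. Of 20 listed genes, 15 had a higher and 5 a lower fold change in VSG, with a median of 0.10, and 7 and 13, with a median of -0.15, without VSG 2, SPF 2 and SPF 4. Only 1 of them, Cd38, had an unadjusted p under 0.05 (3.8% of all genes). Cd38, an NAD-consuming surface enzyme of plasma cells and other cells, stood at 151.7 ± 84.4 CPM in VSG and 84.5 ± 32.1 CPM in SPF (SD, n = 5 each; log2 fold change 0.84, edgeR adjusted p = 0.977, unadjusted 0.0425; 0.74 in the 7 libraries). Ell2, an elongation factor that favours secretory immunoglobulin mRNA, was 86.1 ± 15.9 CPM in VSG and 67.9 ± 20.9 CPM in SPF (log2 fold change 0.34, and 0.65 in the 7 libraries). Cav1, the caveola protein, was 21.5 ± 1.05 CPM in VSG and 32.4 ± 19.3 CPM in SPF, with 61.7 CPM in SPF 5. Mzb1 had a log2 fold change of 0.47, and of 0.00 without VSG 2, SPF 2 and SPF 4.

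The list of XBP1 activity and the unfolded protein response held 37 genes, which fold, glycosylate, move or degrade secreted proteins. Of these, 26 had a higher and 11 a lower fold change, with a median of 0.09, where 41.9% of all genes were higher. An unadjusted p under 0.05 by edgeR was reached by 2, all higher, where all genes had 1.88% on that side. Without the 3 libraries there were 20 and 17, with a median of 0.08, where 43.2% of all genes were higher. There 3 genes had such a p, all higher, where all genes had 3.7% on that side. Whether these counts exceed the shares of all genes was not tested. Edem1, which hands misfolded glycoproteins to degradation, stood at 234.7, 215.7, 253.1, 242.1 and 238.5 CPM in VSG 1 to VSG 5 and 199.96, 215.2, 203.1, 165.2 and 181.1 CPM in SPF 1 to SPF 5. Its groups did not overlap, though VSG 2 and SPF 2 nearly met, as was so with VSG above for 0.255% of all genes. Edem1 had the lowest p of the 37, and its log2 fold change was 0.30 (edgeR adjusted p = 0.977, unadjusted 0.0286). Dnajb9, a co-chaperone, averaged 49.5 ± 6.85 CPM in VSG and 41.2 ± 2.76 CPM in SPF (log2 fold change 0.27, unadjusted p = 0.0425 by edgeR). Canx, encoding calnexin, had a log2 fold change of 0.27, Dnajc3 0.19, and Hspa5, the main chaperone of the endoplasmic reticulum, 0.18 (95% interval -0.16 to 0.51), and in the 7 libraries these were 0.22, 0.14 and 0.10. Of the IRE1 genes, Ern1 stood at 44.7 ± 4.72 CPM in VSG and 46.4 ± 14.5 CPM in SPF (log2 fold change -0.05, 95% interval -0.55 to 0.44). Ern2, the form of mucosal epithelia, stood at 20.7 ± 5.01 CPM in VSG and 23.6 ± 10.97 CPM in SPF (SD, n = 5 each; -0.19, 95% interval -0.89 to 0.51; -0.36 in the 7 libraries).

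Among genes that carry IgA or draw and feed plasma cells, none was called. Of 25 listed genes 24 were matched and 21 tested, 7 with a higher and 14 with a lower fold change, with a median of -0.07. Without the 3 libraries there were 3 and 18, with a median of -0.46. Pigr, the polymeric immunoglobulin receptor, stood at 2654 ± 966.1 CPM in VSG and 2790 ± 1526 CPM in SPF (SD, n = 5 each; log2 fold change -0.07, 95% interval -0.90 to 0.75), with 5408 CPM in SPF 4. Of the ligands of BCMA, Tnfsf13 (APRIL) was 18.0 ± 7.57 CPM in VSG and 18.3 ± 8.08 CPM in SPF (log2 fold change -0.02, 95% interval -0.81 to 0.77; 0.23 in the 7 libraries). Tnfsf13b (BAFF) was 4.54 ± 0.59 CPM in VSG and 5.22 ± 3.44 CPM in SPF (-0.20, 95% interval -0.97 to 0.56; -0.56 in the 7 libraries). Tslp, an epithelial cytokine, had a log2 fold change of -1.11 (edgeR unadjusted p = 0.0564; -0.64 in the 7 libraries) at 0.168 to 0.607 CPM in VSG and 0.355 to 1.95 CPM in SPF. Cxcl12, a chemokine that retains plasma cells, had -0.41, Ccr10, the homing receptor of IgA plasma cells, 0.44, and Cd28, a co-receptor of T cells and plasma cells, 0.58. In the 7 libraries Cxcl12 had -0.60, Ccr10 0.27 and Cd28 -0.13, so Cd28 changed sign. Ccl28 was not analysed here.

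Of the B cell genes that are switched off in plasma cells, none was called. Over the 10 libraries 14 of 20 had a higher and 6 a lower fold change, with a median of 0.08, and without VSG 2, SPF 2 and SPF 4 there were 1 and 19, with a median of -0.60. Cd79a, part of the B cell receptor, ranged from 6.87 to 51.6 CPM in VSG and from 3.035 to 78.1 CPM in SPF, and Ms4a1 (CD20) from 0.742 to 23.8 CPM in VSG and from 0.223 to 21.5 CPM in SPF. Pax5, the B cell identity factor, had a log2 fold change of 0.09 (95% interval -2.04 to 2.22), an interval that spans large changes in either direction, and -0.72 in the 7 libraries. Bach2 had a log2 fold change of 0.24, Id3 -0.24 and Myc, which Blimp-1 represses, -0.31. In the 7 libraries these were 0.13, -0.37 and -0.61, while Cd79a had -0.66 and Ms4a1 -0.49, against 0.12 and 0.34 in all 10.

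Relatives of Sdc1 and Irf4 were not called either. Sdc2 stood at 9.77 ± 0.92 CPM in VSG and 12.8 ± 2.67 CPM in SPF (SD, n = 5 each; log2 fold change -0.39, edgeR adjusted p = 0.977, unadjusted 0.0427), Sdc4 had a log2 fold change of -0.20 and Sdc3 -0.25. Of the 8 other interferon regulatory factors tested, 3 had a higher and 5 a lower fold change, with a median of -0.01, and 2 and 6, with a median of -0.08, in the 7 libraries. Irf7 had a log2 fold change of 0.36, Irf8 0.17 and Irf1 -0.20. In the 7 libraries these were 0.27, -0.08 and -0.59, so Irf8 changed sign.

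Markers of other cells did not share one direction. All 7 tested T cell markers had a lower fold change in VSG (median -0.37, and -0.90 in the 7 libraries), with Cd3e at 2.14 ± 1.10 CPM in VSG and 2.80 ± 1.44 CPM in SPF. All 8 macrophage and dendritic markers were lower (median -0.16, and -0.42 in the 7), as were all 8 smooth muscle markers (median -0.69, and -0.56 in the 7). Among Paneth markers all 6 were lower, with a median of -0.70 and 0 at an unadjusted p under 0.05. In the 7 libraries that median was -1.55 and all 6 had such a p, against 3.26% of all genes on the lower side, with none passing the adjusted test. Lyz1, the Paneth cell lysozyme, stood at 2904 ± 2178 CPM in VSG and 4697 ± 2511 CPM in SPF (log2 fold change -0.69, and -1.53 in the 7). Of 7 goblet markers 4 were higher (median 0.02, and -0.31 in the 7 libraries), with Muc2 at 1851 ± 631.1 CPM in VSG and 1629 ± 627.1 CPM in SPF. Of 8 enterocyte markers 7 were higher (median 0.28, and 0.47 in the 7), with Epcam at 3089 ± 596.1 CPM in VSG and 2572 ± 849.0 CPM in SPF (SD, n = 5 each throughout). Of 12 B cell markers 9 were higher (median 0.10), and 0 in the 7 libraries (median -0.67). Ptprc, which all leukocytes carry, had a log2 fold change of 0.12, and -0.35 in the 7. None of these markers passed the adjusted test, and their part in the members' values was not tested.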

How the data were processed

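Per the labels' protocols, RNA of 10 terminal ileum samples was made into TruSeq libraries and read as single ends of 50 bases. Whether the kit marks strand, and the aligner and counter, are not given in the sources used here. The submitters' processing notes name build mm9 and DESeq. Estimated counts for each Ensembl gene were deposited by the authors (61.18% of values whole, despite file names that speak of RPKM) and a second file with log2 values, which equal the log2 of the scaled count minus the median of the SPF libraries and served as an alternative. Of 36401 genes, 10315 had no count.

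Estimated counts were rounded and tested in edgeR 4.0.16 (R 4.3.3): filterByExpr, TMM factors, a quasi-likelihood F test of surgery alone, Benjamini-Hochberg adjustment over all genes tested and a threshold of 0.05. Normalised CPM use TMM factors, and log2 CPM a prior count of 2. Fold changes are edgeR's, and n is 5 libraries per group. The SE was derived as the absolute log2 fold change over the square root of the F statistic. Intervals were built from that SE and a t quantile. Correlations were tested two-sided with 100000 permutations in 10 libraries and all 5040 orders in 7. Alternatives used limma 3.58.1 and DESeq2 1.42.0 among others. The fit and the likeness ranking were tested on simulated data.

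The members and gene lists were chosen with earlier results of these data known, as was the set of libraries left out. All members are named, with the 4 genes of lowest p in each related list, a set of genes always named, and the 10 genes most like Derl3, Tnfrsf17 and Igj. Genes of the lists that the files do not name are not analysed here. Of the genes this rule names, 3 are not reported here.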

Additional observations from a re-analysis of the deposited data

Results flagged for a closer look

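In each group of 5 libraries, a library was marked when its gap to the nearest other exceeded 0.71 of the group's range (Dixon's 95% value). Chance marks about 1 in 20 groups, and 7 of the 100 groups of members and named genes were marked. Of the members, Prdm1 was high in VSG 3, at 19.1 CPM against 13.7 to 14.7 CPM in the other VSG libraries, and Sdc1 was low in VSG 2, at 115.1 CPM against 292.7 to 307.5 CPM. Dnajc3 was high in VSG 3, at 173.3 CPM against 138.3 to 143.0 CPM. In SPF, Iglc3 was high in SPF 3 (249.99 CPM against 6.845 to 15.5), Tslp in SPF 4 (1.95 CPM against 0.355 to 0.787) and Tnfsf13b in SPF 5 (11.25 CPM against 3.035 to 4.76), and Myc was low in SPF 2 (13.7 CPM against 41.6 to 49.0).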

How the results depend on the processing

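Over 23 alternatives, the fold changes of the 7 members kept their direction and their side of the threshold in 160 of 161 values. The lowest adjusted p of any member was 0.334 (Derl3), far from the threshold, so keeping its side says little. By edgeR the unadjusted p of Derl3 rose to 0.102 without VSG 2 and to 0.187 without VSG 2, SPF 2 and SPF 4. It was also above 0.05 without VSG 3, SPF 1, SPF 2 or SPF 5. For Prdm1 the unadjusted p rose to 0.098 with library totals. The exception among the 161 values was Irf4, at -0.17 without VSG 2, SPF 2 and SPF 4, and the cause was not tested. No gene was called under any alternative except the DESeq2 Wald test, which called 14, none of them a member. With each library left out, the log2 fold change ran from 0.50 (without VSG 2) to 0.91 (SPF 3) for Derl3, 0.32 (VSG 3) to 0.84 (SPF 3) for Tnfrsf17, 0.36 (VSG 2) to 0.80 (SPF 4) for Igj, 0.37 (VSG 3) to 0.57 (SPF 5) for Prdm1, 0.14 (SPF 1) to 0.30 (VSG 4) for Xbp1, 0.12 (SPF 2) to 0.57 (VSG 1) for Irf4 and 0.37 (SPF 4) to 0.80 (SPF 3) for Sdc1. Genes called stayed at 0 in those fits, while genes at an unadjusted p under 0.05 ran from 399 (without VSG 5) to 1135 (without VSG 2) and 1939 (without SPF 3). Of the 595 such genes, 49.6% were higher in VSG, against 30.4% with upper quartile factors and 32.2% with library totals, where the median of all genes was -0.10 and -0.11 in place of -0.05. Samples with the same number did not deviate together over the genes tested (correlations of -0.32 to 0.18, none best with its own number). Such deviations also carry the difference of VSG 2, SPF 2 and SPF 4, so they cannot decide whether the numbers pair mice. The labels do not say that they do. With the replicate block 0 genes were called and 408 had p under 0.05, and the fold changes were 0.71 for Derl3, 0.61 for Tnfrsf17, 0.57 for Igj, 0.47 for Prdm1, 0.20 for Xbp1, 0.44 for Irf4 and 0.55 for Sdc1. Depth limits Tnfrsf17 most, at 11 to 36 reads per library.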
